A study of Mus musculus with 6 samples.

Results

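RNA of 9 genes of the endothelial adherens junction was examined: 3 cadherins, *Cdh5* (VE-cadherin, VEC), *Cdh2* (N-cadherin) and *Cdh13* (T-cadherin), with *Ctnnb1* (β-catenin), *Jup* (plakoglobin), *Ctnnd1* (p120-catenin), *Pkp4* (p0071), *Ctnna1* (αE-catenin) and *Vcl* (vinculin). They were taken by Ensembl identifier from a table of 24080 genes, and all 9 were among the 14032 genes that passed the filter on low values. VEC-positive cells were made by retroviral transfer of wild-type VEC into VEC-null cells, a cultured line of endothelial cells that came from mouse embryonic stem cells with a homozygous null mutation of the VEC gene. Both groups therefore carry the null alleles. Total RNA was sequenced in 3 libraries of each, described as biological replicates. Because 1 line is set against its reconstituted form, p-values here measure spread between libraries, and an effect of VEC cannot be told apart from other differences between the lines.

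Classical cadherins bind the same cadherin on the neighbouring cell through their extracellular repeats. Their cytoplasmic tail holds p120-catenin near the membrane and, further out, either β-catenin or plakoglobin, which bind αE-catenin and through it actin, with vinculin recruited under tension. In endothelial cells VEC is the cadherin of adherens junctions, while N-cadherin lies largely outside them and serves contact with mural cells. Unbound β-catenin can enter the nucleus and act with transcription factors of the TCF family.

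Recovered reads ranged between 9598590 and 14136376 in the VEC-positive libraries and between 6036155 and 11670273 in the VEC-null libraries. Genes of the mitochondrial genome took 17.97% to 24.18% of reads in VEC-positive and 9.62% to 14.9% in VEC-null libraries. VEC-null replicate 3 stood apart, differing from both other VEC-null libraries by a chi-square of 43.57 to 45.19 per gene, against 6.05 between those 2 and 10.75 to 16.63 among VEC-positive libraries. Of 13 tested endothelial markers, 10 were higher in VEC-positive libraries, where 20.9% of all tested genes were, and 3 did not pass, and their summed normalized counts were 71680 to 73638 in VEC-positive and 50586 to 52999 in VEC-null libraries. Mural and fibroblast markers summed to 267 to 316 in VEC-positive and 92.2 to 234 in VEC-null libraries. Of 5 tested, 1 was higher, *Pdgfrb*, where 20.9% of all tested genes were, and 4 did not pass. *Pdgfrb* had 95.6, 118 and 102 normalized counts in VEC-positive and 1.53, 0 and 1.77 in VEC-null libraries. Group means of *Acta2*, *Tagln*, *Cnn1*, *Rgs5* and *Col1a2* were lower in VEC-positive libraries, and those of *Myh11*, *Des*, *Col1a1*, *Pdgfra* and *Dcn* were higher. The direction of *Col1a2* depended on the measure. Its fitted log2 fold change was 0.27, and its 15.1 normalized counts in VEC-null replicate 3 were below those of every VEC-positive library. Summed blood cell markers were at 143 to 201 and 134 to 439, epithelial markers at 16.9 to 38.0 and 4.59 to 7.09, and pluripotency markers at 0.974 to 13.7 and 3.55 to 10.7, in VEC-positive and VEC-null libraries in each pair. The 1 epithelial marker tested, *Krt19*, had 16.3, 31.2 and 14.5 normalized counts in VEC-positive and 0 in all VEC-null libraries. It made up most of the epithelial sum in every VEC-positive library. The untested *Krt8* and *Krt18* ran the other way without overlap. *Krt8* was at 0 to 0.807 in VEC-positive and 1.53 to 1.77 in VEC-null libraries, and *Krt18* at 0 to 0.974 and 2.36 to 4.43. *Cldn4* had 4.87 in VEC-positive replicate 2 and 0 in all other libraries, while *Cdh1* and *Epcam* were at 3.15 or below throughout. Of blood cell markers 3 were tested and 0 were called by limma, edgeR or DESeq2 or had an unadjusted p under 0.05. Over all tested genes, limma called 37.3%. No pluripotency marker passed the filter. The part of these differences in the results below was not tested. In bulk RNA, fewer cells of a type and less RNA per cell cannot be told apart.

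*Cdh5*, the gene that was inactivated and transferred, ran against the labels of the libraries. It lies on chromosome 8 of mm10 from 104101625 to 104144511 (ENSMUSG00000031871), and its normalized counts, read counts divided by a size factor per library, were 794, 739 and 749.7 in the 3 libraries labelled VEC-positive and 1334, 1439 and 1689 in the 3 labelled VEC-null. All 3 libraries labelled VEC-positive were below all 3 labelled VEC-null, on 2369 and 4604 recovered reads. On the log2 scale the difference, VEC-positive minus VEC-null, was -0.96 with a standard error of 0.098 (adjusted p = 0.000182), and it kept its sign and its call under all 17 alternative settings, between -1.27 and -0.86. Which exons the reads cover cannot be read off a single value per gene, and the detailed structures of the null allele and the wild-type cDNA were not in hand. *Cldn5*, a tight junction gene on the list of endothelial markers that was singled out after its values were seen, had 429, 512 and 434 normalized counts in libraries labelled VEC-positive and 9.18, 5.51 and 4.43 in those labelled VEC-null (log2 6.01, adjusted p = 2.14e-06), and *Ptprb* and *Tiam1* were higher by label too. These 3 genes, which the study took up further, thus differed by label in the opposite direction to *Cdh5*, and which cells a library came from cannot be settled from these values. All directions below are those of the library labels.

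*Cdh2* (ENSMUSG00000024304, chromosome 18, 16588877 to 16809246), which encodes a classical cadherin that shares the catenins with VEC, also fell. Its normalized counts were 275, 316 and 274 in libraries labelled VEC-positive and 689, 764 and 1042 in those labelled VEC-null. The groups did not overlap, and VEC-null replicate 3 held the highest value. *Cdh2* was 2.84-fold lower (log2 -1.50, standard error 0.15, adjusted p = 0.000181), and its call stood under all 17 settings (-1.81 to -1.33).

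*Cdh13* (ENSMUSG00000031841, chromosome 8, 118283733 to 119324921) ran the other way. It encodes a cadherin held by a lipid anchor, without the cytoplasmic tail that binds catenins. Its normalized counts were 693, 763 and 745 in libraries labelled VEC-positive and 418, 383 and 389 in those labelled VEC-null. Every VEC-positive library was above every VEC-null library, a 1.85-fold difference (log2 0.89, standard error 0.082, adjusted p = 0.000105) that passed under all 17 settings (0.57 to 0.93).

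**Figure D1:**
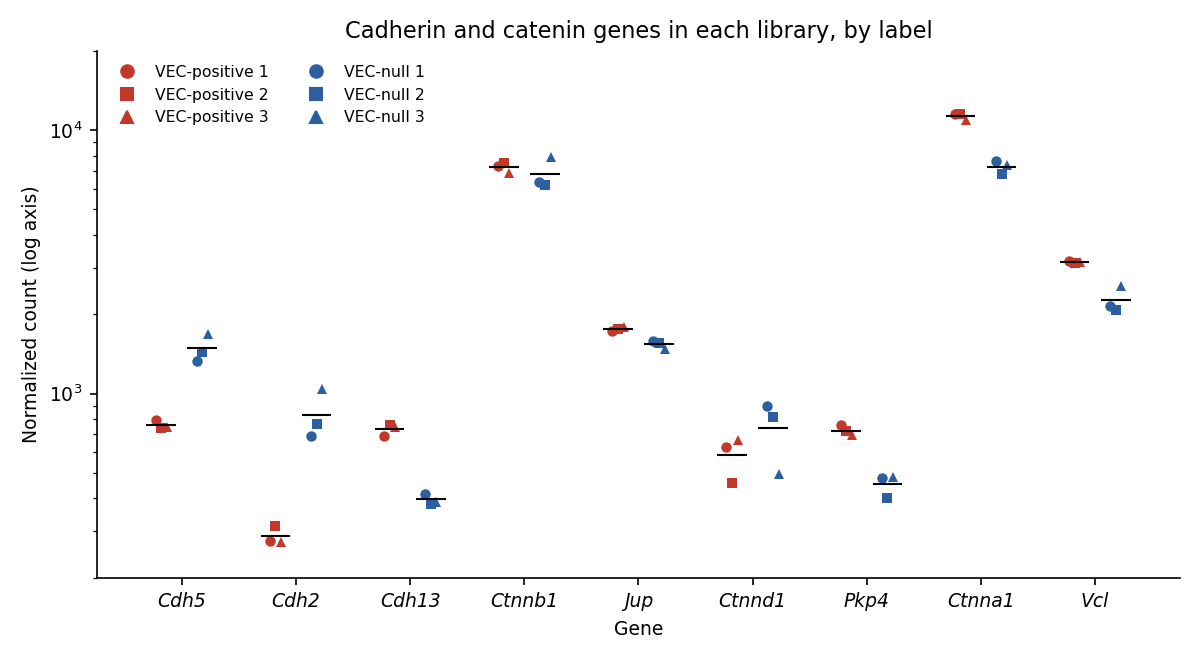
Normalized counts (vertical axis, logarithmic) of the 9 junction genes in each library, VEC-positive (red) left of VEC-null (blue) for each gene, with 3 points per group, 1 symbol per replicate, and a black bar at the mean. *Cdh5* and *Cdh2* lie lower and *Cdh13*, *Jup*, *Pkp4*, *Ctnna1* and *Vcl* higher in VEC-positive libraries without overlap, while *Ctnnb1* and *Ctnnd1* overlap.

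β-catenin and plakoglobin are armadillo proteins that compete for the same stretch of the cadherin tail. *Ctnnb1* (ENSMUSG00000006932, chromosome 9, 120929216 to 120960507) had 7301, 7515 and 6902 normalized counts in libraries labelled VEC-positive and 6365, 6166 and 7914 in those labelled VEC-null. The groups overlapped because VEC-null replicate 3 was the highest of all 6 libraries. The log2 fold change was 0.10 (95% confidence interval -0.15 to 0.34, adjusted p = 0.519). Without that library it was 0.21 (adjusted p = 0.0308), and it was -0.22 when libraries were scaled to equal totals.

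*Jup* (ENSMUSG00000001552, chromosome 11, 100368958 to 100397763) had 1729, 1763 and 1792 normalized counts in libraries labelled VEC-positive and 1579, 1556 and 1482 in those labelled VEC-null. The ranges lay apart but close, and the gene was higher by a small amount (log2 0.20, standard error 0.066, adjusted p = 0.0488). The call held under only 4 of 17 settings. With edgeR the adjusted p was 0.0697 and with DESeq2 0.0989, and scaling to equal totals turned the log2 fold change to -0.12.

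p120-catenin and p0071 belong to 1 armadillo subfamily that binds the part of the tail next to the membrane, where p120-catenin slows the uptake of the cadherin. *Ctnnd1* (ENSMUSG00000034101, chromosome 2, 84600071 to 84650765) had 625, 459.8 and 666 normalized counts in libraries labelled VEC-positive and 901, 818 and 497 in those labelled VEC-null. VEC-null replicates 1 and 2 were above all VEC-positive libraries and replicate 3 was within their range. The log2 fold change was -0.31 (95% confidence interval -0.85 to 0.22, adjusted p = 0.327), and without VEC-null replicate 3 it was -0.57 (adjusted p = 0.01). It was -0.15 without VEC-positive replicate 2 (adjusted p = 0.696) and also -0.15 without VEC-null replicate 1 (adjusted p = 0.684). A gene model on the same strand, Gm28635, covers 4482 of its 7319 exon bases. Gm28635 has no values of its own among the 24080 genes, and no source used here says how reads in the shared bases were counted.

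*Pkp4* (ENSMUSG00000026991, chromosome 2, 59160850 to 59355208) was higher in VEC-positive libraries. Its normalized counts were 759, 719 and 694 in libraries labelled VEC-positive and 479, 403 and 481 in those labelled VEC-null. The groups did not overlap, the log2 fold change was 0.67 (standard error 0.096, adjusted p = 0.000996), and the call stood under all 17 settings (0.36 to 0.72).

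*Ctnna1* (ENSMUSG00000037815, chromosome 18, 35118859 to 35254779) encodes αE-catenin, the actin-binding link of the complex, and by normalized count it ranked 76th of the 14032 tested genes. It had 11464, 11478 and 10926 normalized counts in libraries labelled VEC-positive and 7646, 6809 and 7356 in those labelled VEC-null. All VEC-positive libraries were above all VEC-null ones, 1.55-fold (log2 0.64, standard error 0.080, adjusted p = 0.000529), and the call stood under all 17 settings (0.32 to 0.67).

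**Figure D2:**
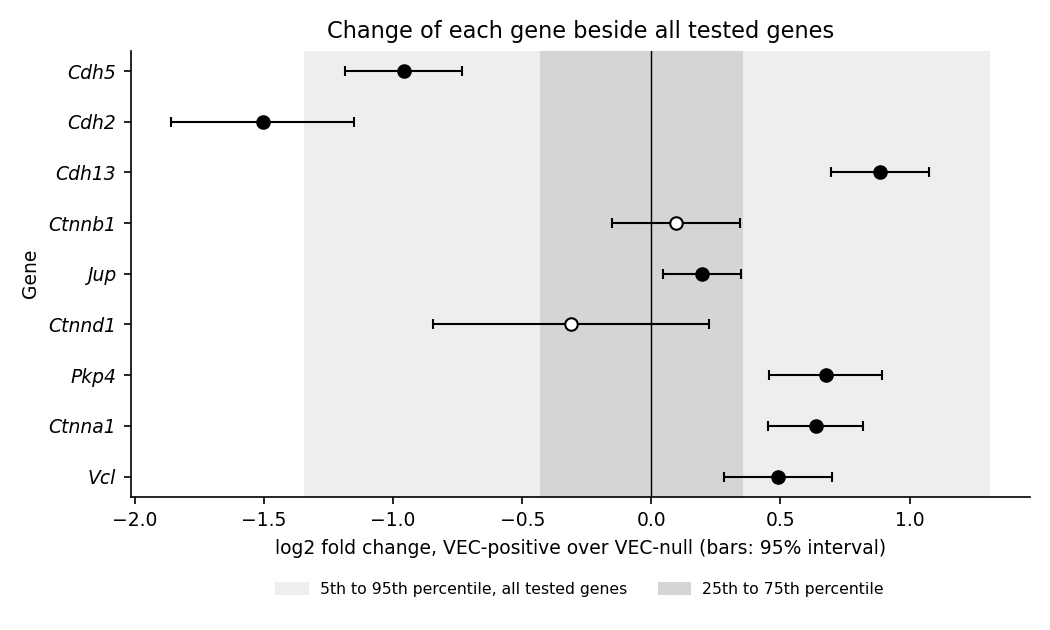
Log2 fold change (VEC-positive over VEC-null) of the 9 junction genes with 95% confidence intervals from limma, where filled points passed an adjusted p of 0.05 and the grey bands span the 5th to 95th and 25th to 75th percentiles of all tested genes. *Cdh2* is lowest at -1.50 and *Cdh13* highest at 0.89, and the intervals of *Ctnnb1* and *Ctnnd1* span 0.

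*Vcl* encodes vinculin, which strengthens the hold of αE-catenin on actin. Its gene (ENSMUSG00000021823, chromosome 14, 20929398 to 21033676) had 3182, 3137 and 3168 normalized counts in libraries labelled VEC-positive and 2156, 2073 and 2561 in those labelled VEC-null. The VEC-positive values lay within a narrow band above all VEC-null values. The log2 fold change was 0.49 (standard error 0.091, adjusted p = 0.00384), and it was 0.18 (adjusted p = 0.135) when libraries were scaled to equal totals. *Ap3m1*, on the opposite strand, shares 2090 exon bases with it and had 495 normalized counts in VEC-positive and 429 in VEC-null libraries.

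A promoter was at hand for 5 of the 9 genes (*Ctnnb1*, *Ctnnd1*, *Jup*, *Pkp4* and *Vcl*), in 8 RefSeq windows of build GRCm38.p6 that run from 250 bases before a start to 50 after it. Windows were searched on both strands for the CArG box, which serum response factor binds, for the TCF cores CTTTGA and CTTTGT and for the FoxO core TGTTTAC. The *Vcl* window is shown because it alone of the 8 held one of these motifs, a CArG box that begins 227 bases before the start and is in capitals. It lies at chr14:20929148-20929447 on the + strand.
Vcl promoter: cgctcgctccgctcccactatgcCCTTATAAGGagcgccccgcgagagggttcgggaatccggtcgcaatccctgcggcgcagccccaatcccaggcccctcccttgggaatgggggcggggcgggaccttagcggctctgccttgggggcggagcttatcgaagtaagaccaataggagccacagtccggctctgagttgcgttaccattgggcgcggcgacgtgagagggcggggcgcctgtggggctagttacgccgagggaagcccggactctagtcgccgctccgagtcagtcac
A CArG box stands in 1.63% of 32851 promoter windows of this length, CTTTGA in 16.0%, CTTTGT in 18.7% and TGTTTAC in 3.65%. The letters of the TCF and FoxO cores were not in the 8 windows, which is a statement about these windows and not about binding.

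By direction, 5 of the 9 genes (*Cdh13*, *Jup*, *Pkp4*, *Ctnna1* and *Vcl*) were higher in libraries labelled VEC-positive, where 20.9% of all tested genes were, and 2 (*Cdh5* and *Cdh2*) were lower, where 16.4% were. In all, 7 of 9 passed, against 37.3% of 14032 tested genes. The groups did not overlap for the same 7 of 9, against 50% of tested genes. The number that passed was 5 when libraries were scaled to equal totals and 9 without VEC-null replicate 3. In those 2 settings 6526 and 7159 of the 14032 tested genes passed, against 5231 in the main fit. The median log2 fold change of the 9 genes was 0.20 and that of all tested genes -0.01. With equal totals these were -0.12 and -0.32.

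To compare levels between genes, normalized counts were divided by the kilobases of all annotated exons. In VEC-positive libraries *Ctnna1* was at 1757 ± 49.1 per kilobase and *Ctnnb1* at 1394 ± 60.0 (SD, n = 3 each, as below). *Vcl* followed at 386 ± 2.83, *Jup* at 274 ± 4.96 and *Cdh5* at 181 ± 6.95. *Pkp4* was at 127 ± 5.78, *Ctnnd1* at 79.7 ± 14.9, *Cdh13* at 65.3 ± 3.23 and *Cdh2*, the lowest, at 35.8 ± 2.92. Of neighbours in this order, *Ctnnd1* and *Cdh13* overlapped between libraries and the others did not. αE-catenin and β-catenin RNA thus stood several times above that of every cadherin.

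In VEC-null libraries the order began with *Ctnnb1* at 1313 ± 184 per kilobase and *Ctnna1* at 1132 ± 66.2, whose ranges overlapped. *Cdh5* came next at 354 ± 43.4, ahead of *Vcl* at 276 ± 31.9 and *Jup* at 239 ± 7.92. *Cdh2* at 103 ± 23.1, *Ctnnd1* at 101 ± 29.1 and *Pkp4* at 79.6 ± 7.79 overlapped with their neighbours, and *Cdh13* was lowest at 35.3 ± 1.66. On this scale *Cdh5* stood below *Vcl* and *Jup* in VEC-positive libraries and above both in VEC-null ones. Levels between genes depend on the length used, and that of *Ctnnd1* also on how reads in bases shared with Gm28635 were counted. Per kilobase of coding sequence, *Cdh13* (342 ± 17.0) and *Cdh5* (324 ± 12.4) overlapped in VEC-positive libraries, and in VEC-null libraries *Cdh5* (632 ± 77.5) had a mean below *Vcl* (708 ± 81.6) and *Jup* (689 ± 22.8), with overlap.

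**Figure D3:**
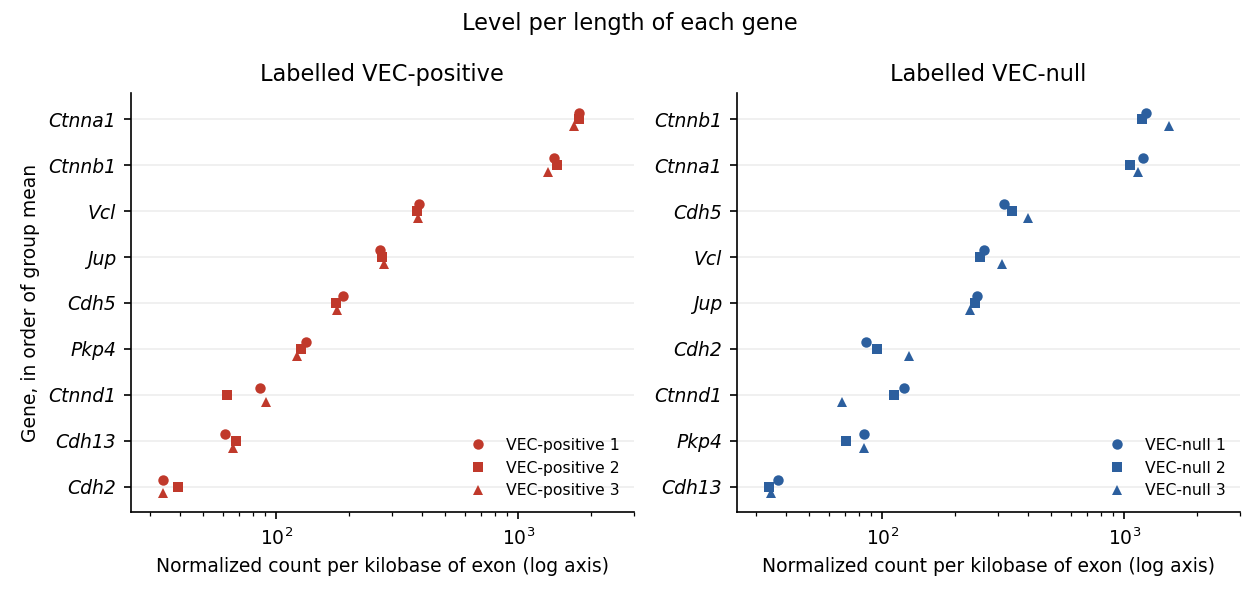
Level of the 9 junction genes in normalized counts per kilobase of exon (logarithmic axis), 1 point per library, with VEC-positive in the left panel and VEC-null in the right and genes in order of the group mean. *Ctnna1* and *Ctnnb1* are the highest in both groups, and *Cdh5* is at a mean of 181 in VEC-positive and 354 in VEC-null libraries.

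Among the 3 cadherins, per kilobase of exon, *Cdh5* made up 64.2 ± 2.1% of the sum in VEC-positive and 72.0 ± 0.83% in VEC-null libraries. *Cdh2* made up 12.7 ± 1.01% and 20.8 ± 1.81%, and *Cdh13* 23.1 ± 1.30% and 7.27 ± 1.16%, in VEC-positive and VEC-null libraries in each pair. The RNA of *Cdh5* plus *Cdh2*, whose wild-type proteins have a catenin-binding tail, summed to 217 ± 5.59 per kilobase in VEC-positive and 457 ± 66.4 in VEC-null libraries. Both groups carry null alleles of *Cdh5*, and whether RNA from those alleles encodes such a tail was not tested. This sum, and the ratios below that use it, are thus of RNA and not of cadherin able to bind catenins. Per kilobase of coding sequence, an alternative added after the data were seen, the shares in VEC-positive and VEC-null libraries were 41.9 ± 2.19% and 56.3 ± 0.68% for *Cdh5*, 13.7 ± 0.89% and 27.0 ± 2.56% for *Cdh2*, and 44.3 ± 1.66% and 16.7 ± 2.52% for *Cdh13*. The length used thus sets whether *Cdh5* or *Cdh13* has the higher mean share in VEC-positive libraries, while each cadherin differed between the groups in the same direction on both scales. These shares are of RNA, and protein was not measured in these files.

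Ratios between members were formed within each library, where its scaling cancels. With 3 libraries against 3, the exact two-sided permutation test cannot give a p below 0.1, and over 8 ratios this adjusts to 0.16. *Ctnnb1* to *Cdh5* plus *Cdh2* was 6.30, 6.73 and 6.26 in VEC-positive and 3.04, 2.72 and 2.87 in VEC-null libraries. The ranges lay far apart, a 2.24-fold difference (exact permutation p = 0.1). *Ctnna1* to *Ctnnb1* plus *Jup* was 1.07, 1.04 and 1.06 in VEC-positive and 0.809, 0.741 and 0.653 in VEC-null libraries. This ratio of αE-catenin RNA to that of its 2 partners did not overlap between groups (log2 difference 0.53, exact permutation p = 0.1).

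*Cdh13* to *Cdh5* was 0.361 ± 0.0311 in VEC-positive and 0.101 ± 0.0155 in VEC-null libraries (log2 difference 1.85), and *Cdh2* to *Cdh5* was 0.198 ± 0.0218 and 0.289 ± 0.0283 (-0.55). *Pkp4* to *Ctnnd1* was 1.63 ± 0.341 in VEC-positive and 0.852 ± 0.338 in VEC-null libraries (0.99). How reads in the exon bases that *Ctnnd1* shares with Gm28635 were counted is not known, which limits every ratio with *Ctnnd1*. Per kilobase of coding sequence, *Cdh13* to *Cdh5* was 1.06 ± 0.0914 in VEC-positive and 0.296 ± 0.0455 in VEC-null libraries. *Cdh2* to *Cdh5* was 0.329 ± 0.0363 and 0.480 ± 0.0471, and *Pkp4* to *Ctnnd1* was 1.03 ± 0.216 and 0.540 ± 0.214. The log2 differences are the same by construction, because the length of a gene is the same in every library. These 3 ratios did not overlap between groups either, each at the smallest p of 0.1 (exact permutation test). *Ctnnd1* to *Cdh5* plus *Cdh2* overlapped, at 0.368 ± 0.0693 in VEC-positive and 0.230 ± 0.0917 in VEC-null libraries (log2 difference 0.75, exact permutation p = 0.2). *Jup* to *Ctnnb1* (0.197 ± 0.0112 in VEC-positive and 0.185 ± 0.0294 in VEC-null, p = 0.8) and *Vcl* to *Ctnna1* (0.220 ± 0.00681 and 0.244 ± 0.0264, p = 0.2, exact permutation tests) overlapped as well.

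**Figure D4:**
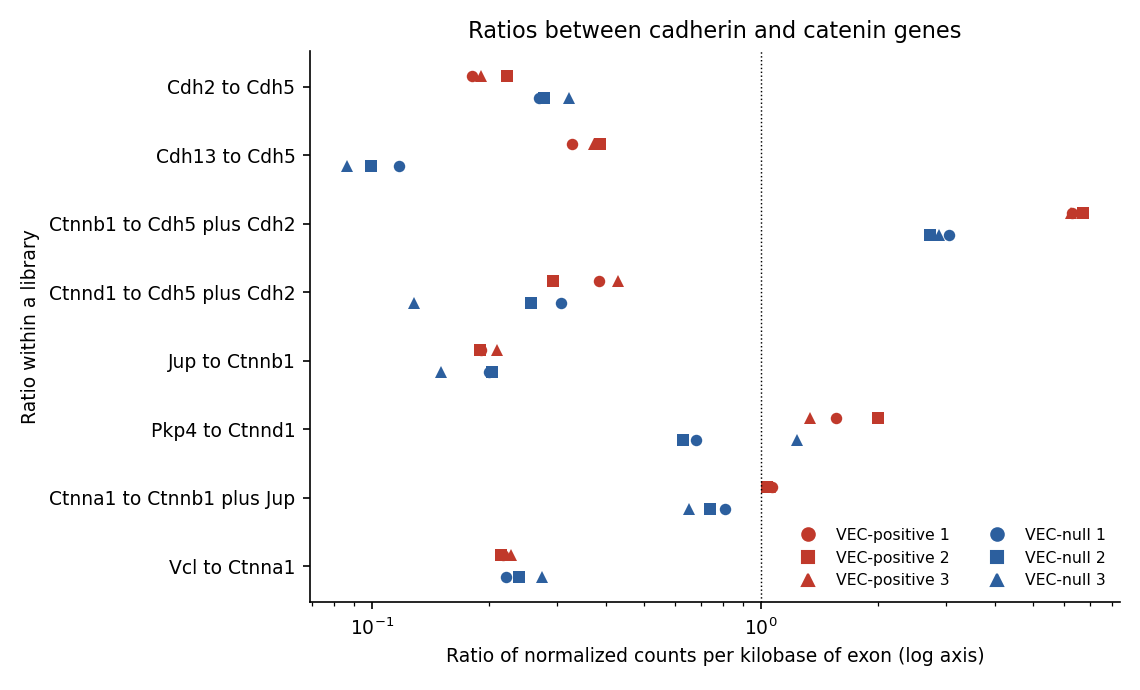
The 8 ratios of normalized counts per kilobase of exon within each library (logarithmic axis, dotted line at 1), VEC-positive (red) above VEC-null (blue). *Ctnnb1* to *Cdh5* plus *Cdh2* lies at 6.26 to 6.73 in VEC-positive and 2.72 to 3.04 in VEC-null libraries, and 3 ratios (*Ctnnd1* to *Cdh5* plus *Cdh2*, *Jup* to *Ctnnb1*, *Vcl* to *Ctnna1*) overlap between the groups.

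Across the 6 libraries, the tested genes with a mean of at least 100 whose log2 values ran most like those of *Cdh5* were *Armcx2* (Pearson r = 0.999), *Tmem164* (0.998) and *Khsrp* (0.998). Among the members, *Cdh2* had r = 0.990 with *Cdh5*, while *Jup* had r = -0.992 and *Cdh13* r = -0.986. The 6 points share the difference between the groups, so these values describe the libraries only.

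Other genes of the junction were read from the same fit, in 6 lists that leave out the 9 members. Of 16 other classical cadherins, 14 had values and 3 were tested. Among the 3, limma called 0, beside 37.3% over all tested genes, with 1 at an unadjusted p under 0.05. With edgeR and with DESeq2, 1 was called, *Cdh11*. *Cdh11*, a mesenchymal cadherin, had 28.0, 35.1 and 33.9 normalized counts in VEC-positive and 112, 96.9 and 34.6 in VEC-null libraries, where replicate 3 was within the range of the VEC-positive values (log2 -1.14, adjusted p = 0.0628). The median of the 3 was -0.76.

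Of 14 tested protocadherins and other members of the superfamily, 7 were higher, 3 were lower and 4 did not pass, with a median log2 fold change of 0.36, beside 37.3% called over all tested genes. With equal totals 5 were higher and 3 lower, with a median of 0.045. Beside them, 1566 of all 14032 tested genes were higher and 4960 lower at that scaling, with a median of -0.32. *Fat1*, a giant cadherin, had 493, 508 and 547 normalized counts in VEC-positive and 38.3, 26.8 and 25.7 in VEC-null libraries, a log2 fold change of 4.07 (adjusted p = 2.06e-06). *Pcdh17* was higher by 1.13, *Celsr1*, a planar polarity gene, by 1.12 and *Pcdh9* by 0.97 on the log2 scale. *Dchs1*, a partner of Fat cadherins, was at 0.07 (adjusted p = 0.57) and *Pcdh19* at 0.10 (adjusted p = 0.725), and both turned negative with libraries scaled to equal totals. *Pcdh18*, singled out after its values were seen, had 64 recovered reads in VEC-positive and 0 in VEC-null libraries, at least 21.6-fold higher against a floor of 3 reads over the group.

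Of 4 tested other catenins and armadillo junction proteins, 2 were higher and 2 did not pass (median 0.62), beside 20.9% higher over all tested genes. *Ctnnal1*, which encodes the vinculin- and catenin-related α-catulin, was at 3046 ± 181 normalized counts in VEC-positive and 1296 ± 149 in VEC-null libraries (SD, n = 3; log2 1.24, adjusted p = 5.47e-05). *Pkp1*, a desmosomal plakophilin singled out after its values were seen, had 44.3, 42.9 and 50.8 in VEC-positive and 1.53, 3.15 and 1.77 in VEC-null libraries. Of desmosomal cadherins and plakins 2 were tested and 0 were called by limma, edgeR or DESeq2, beside 37.3% called by limma over all tested genes. In limma 1 had an unadjusted p under 0.05, *Ppl* (periplakin), at 0.75 (adjusted p = 0.0619).

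Actin linkers were divided: of 20 tested, 7 were higher, 4 were lower and 9 did not pass, with a median of 0.02, beside 20.9% higher and 16.4% lower over all tested genes. *Actn4*, an actin cross-linker, had 5342, 5595 and 5353 normalized counts in VEC-positive and 1849.9, 1756 and 1844 in VEC-null libraries (log2 1.58, adjusted p = 1.98e-06). *Sorbs2* (log2 1.10), which encodes an adaptor that binds vinculin, was higher, and *Ajuba*, a LIM protein of the α-catenin complex, fell by 0.93 on the log2 scale (adjusted p = 0.00118). *Actn1* at 0.00 (adjusted p = 0.968) and *Tln1* (talin) at -0.10 (adjusted p = 0.387) did not pass. With libraries scaled to equal totals the split was 4 higher and 8 lower and the median -0.30. Over all 14032 tested genes that scaling gave 1566 higher and 4960 lower and a median of -0.32. The median of the actin linkers was just below 0 with TMM, edgeR and DESeq2.

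Of 18 tested genes for kinases, phosphatases and turnover of cadherins, 8 were higher, 3 were lower and 7 did not pass (median 0.25), beside 20.9% higher and 16.4% lower over all tested genes. With equal totals 6 were higher and 5 lower, and the median turned to -0.065. All 14032 tested genes then had 1566 higher and 4960 lower and a median of -0.32. *Ptprb*, which encodes the phosphatase VE-PTP that associates with VEC, was at 21562 ± 870 normalized counts in VEC-positive and 5846 ± 398 in VEC-null libraries (SD, n = 3; log2 1.88, adjusted p = 3.08e-06). *Ptprj*, a further receptor phosphatase of junctions, had 307, 312 and 311 in VEC-positive and 19.9, 38.6 and 74.5 in VEC-null libraries. *Tiam1*, an activator of Rac, was higher by 2.20 and *Numb*, an endocytic adaptor, by 1.20 on the log2 scale. Of the Src family kinases listed, *Fyn* (-0.08, adjusted p = 0.441) and *Yes1* (0.24, adjusted p = 0.0535) did not pass. *Src* itself, singled out after its values were seen, was lower, with 155, 133 and 137 normalized counts in VEC-positive and 280.0, 240.2 and 276 in VEC-null libraries (log2 -0.90, adjusted p = 0.000668). *Ptprb* and *Tiam1* are genes that the study took up from these libraries.

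**Figure D5:**
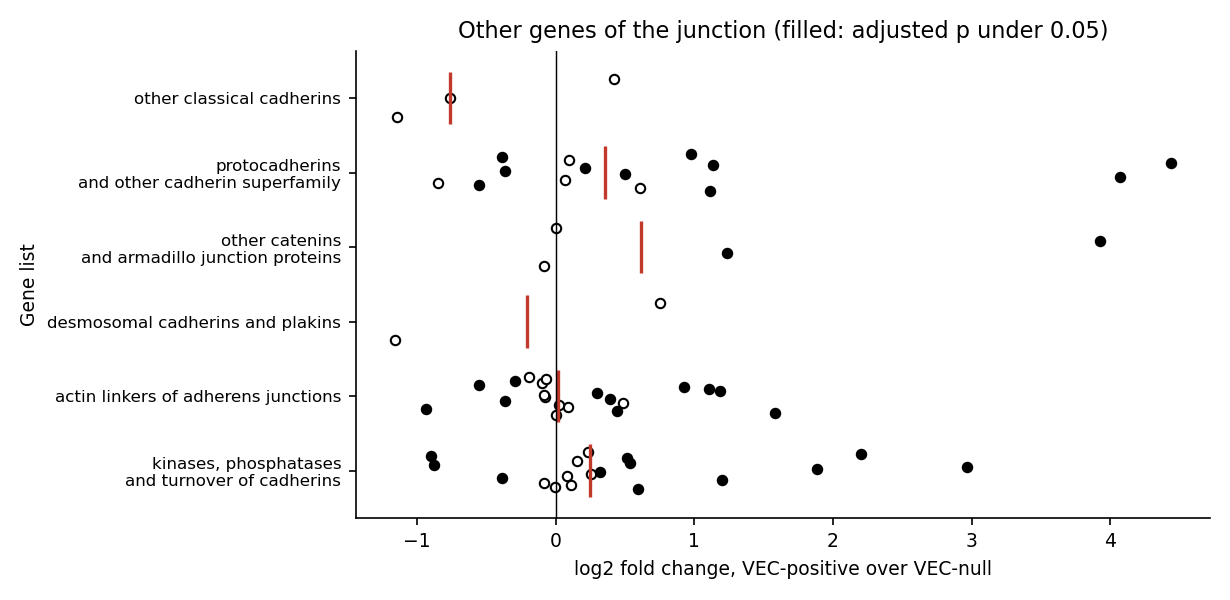
Log2 fold change (VEC-positive over VEC-null) of the tested genes in 6 lists of other junction genes, 1 point per gene, filled where the adjusted p passed 0.05, with a red bar at the median of each list. *Fat1* lies at 4.07 among the protocadherins and other members of the superfamily, and the point of *Pcdh18*, which has 0 reads in VEC-null libraries, is a fitted value that depends on the pseudocount.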

How the data were processed

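Total RNA of 3 VEC-positive and 3 VEC-null libraries was sequenced with a stranded kit. Per the submitters' processing notes, the build was mm10 and the tools were TopHat2 2.1.1, Trim Galore and DESeq2, and no source used here names the counting program or annotation. The deposited signal values are counts per gene that the authors had scaled by a size factor for each library, and 100% of values were whole reads within 0.01 of a read. Symbols and lengths came from GENCODE M21 (23908 of 24080 identifiers) and promoters from RefSeq.

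The 14032 genes that reached 10 normalized counts in 3 or more libraries were compared on log2(value + 1), a scale that understates changes of low genes, in limma 3.58.1 (R 4.3.3) with a mean-variance trend, two-sided, with p-values adjusted over all of them by Benjamini-Hochberg and called under 0.05. As an alternative, edgeR 4.0.16 on recovered reads called 5323 genes, where limma called 5231. DESeq2 1.42.0, other pseudocounts, filters, scalings and spread models, a replicate block and leaving out each library were also tried. Ratios used an exact permutation test. Fits were tested on simulated data. Whether PCR duplicates were removed before counting was not tested.

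The members and lists were chosen with earlier results of these data known. Named were the 9 members; of each list, among genes with a mean of at least 50, up to 4 that passed (by size of change) and up to 2 that did not (by mean); and the 3 genes most like *Cdh5*. A gene that this rule draws is not reported here. Gene groups followed the labels, although *Cdh5* ran against them.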

Additional observations from a re-analysis of the deposited data

How the results depend on the processing

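Under the alternatives, the 7 of 9 member calls ranged between 5 and 9, and all called genes between 3696 and 7159 when 1 library was left out, the highest without VEC-null replicate 3. *Cdh5*, *Cdh2*, *Cdh13*, *Pkp4* and *Ctnna1* kept direction and call under all 17 settings, and *Jup* kept its call under 4. Scaling to equal totals gave 1566 higher and 4960 lower genes, against 2927 and 2304, and without the mitochondrial genome 2051 and 3166. With equal totals the log2 fold changes were -0.22 for *Ctnnb1*, -0.12 for *Jup*, -0.24 for *Dchs1*, -0.21 for *Pcdh19*, -0.31 for *Actn1* and -0.074 for *Yes1*, each positive with the deposited scaling. Without the mitochondrial genome they were -0.050 for *Ctnnb1*, -0.078 for *Dchs1*, -0.047 for *Pcdh19* and -0.14 for *Actn1*. *Actn1*, near 0, was also at -0.0158 with TMM, -0.0155 with edgeR and -0.0133 with DESeq2. With 1 library left out, *Actn1* ranged between -0.0127 (without VEC-positive replicate 3) and 0.027, *Pcdh19* between -0.0142 (without VEC-null replicate 2) and 0.30, and the log2 difference of *Jup* to *Ctnnb1* between -0.040 (without VEC-null replicate 3) and 0.18. Equal totals, equal totals without the mitochondrial genome, edgeR and DESeq2 each called 1 other classical cadherin, where limma called 0. These causes were not tested.

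Same-numbered libraries did not deviate together (r = 0.08, -0.33 and -0.30). With 3 libraries per group these values cannot show whether libraries were prepared in pairs, and the main comparison used no pairing. With the replicate number as a block, 4144 genes and 6 of the 9 members passed, *Jup* being lost (adjusted p = 0.118), and the ratio differences were as before, with exact permutation p-values of at least 0.25.

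With 3 libraries per group, a difference as small as that of *Jup* depends on the scaling, the call of *Ctnnb1* depends on VEC-null replicate 3, and the size of *Ctnnd1* depends on several libraries (-0.57 to -0.15). Shares and ratios between genes depend on the gene length used. Division by exon length assumes that all annotated exons are in use. Counts per gene show neither isoforms nor protein.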
